A study of Rattus norvegicus with 30 samples.

Results

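The tumour necrosis factor (TNF) superfamily ligands and receptors were examined in microglia, the macrophages that reside in the brain, from male rats after a stroke. The members were every gene whose array symbol begins with Tnfsf or Tnfrsf, together with Cd40, Cd40lg, Fas, Faslg, Cd27, Cd70, Lta and Ltb, each read from a single probe set, the brightest on average. This gave 30 genes, 13 ligands and 17 receptors, of 14506 genes named on the array. Stroke was induced by blocking the middle cerebral artery for 75 min with a filament under 1.2% isoflurane, after which the vessel was reopened, and sham controls stood beside the stroke animals. The 30 arrays formed 10 groups of 3: at 12 months of age, the ipsilateral (injured) and contralateral (opposite) hemispheres on day 14, the same hemispheres on day 3, and sham; and the same 5 groups at 3 months of age.

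The ipsilateral and contralateral arrays with the same replicate number came from the same animal, per the codes in the labels, so that 12 stroke animals gave 24 arrays. The labels give the strain in conflicting ways, as Wistar Kyoto in the sample characteristics and as spontaneously hypertensive rats in the protocols, for all groups alike. How the microglia were isolated and which hemisphere the sham samples came from are not given in the sources used here. The sample codes fell into 4 series, one each for sham, day 3 and day 14 at 3 months and one for all groups at 12 months. At 3 months, a comparison with sham or between days, and likewise the comparison of ages in sham, therefore cannot be told apart from the code series, whereas the hemispheres were always compared within one series. Values are log2 signals as the authors made them, 1 unit being a doubling, and a gene was called changed at an adjusted p under 0.05 (limma, Benjamini-Hochberg over the 11675 genes tested).

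Ligands of the TNF superfamily are mostly membrane proteins that act as trimers and can be shed, and they cluster receptors on neighbouring cells or on the same cell. Receptors with a death domain can start apoptosis or necroptosis through adaptor proteins, whereas most others bind TRAF adaptors and activate NF-kB and MAP kinases. Decoy receptors bind ligand without passing on a full signal. In the brain, microglia are both a source of such ligands and carriers of the receptors, the best known being TNF with its receptors Tnfr1 and Tnfr2.

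Several members lie side by side in the rat genome. Tnfsf13 and Tnfsf12 are neighbours on chromosome 10 with 0 protein-coding genes between them, and Tnfrsf4 and Tnfrsf18 as well as Tnfrsf1b and Tnfrsf8 are neighbours on chromosome 5. Lta and Ltb flank Tnf on chromosome 20. RefSeq promoter windows, 250 bases before to 50 bases after the annotated start, were matched for 21 of the 30 members. Both windows shown here, of the build GRCr8, belong to members that differed the same way between the hemispheres in all 12 animals, Tnfsf13 (chr10:54901766-54902065, minus strand) and Tnfrsf12a (chr10:13213599-13213898, minus strand). Capitals mark GGGCGG, the core of a GC box, on either strand.
Tnfsf13: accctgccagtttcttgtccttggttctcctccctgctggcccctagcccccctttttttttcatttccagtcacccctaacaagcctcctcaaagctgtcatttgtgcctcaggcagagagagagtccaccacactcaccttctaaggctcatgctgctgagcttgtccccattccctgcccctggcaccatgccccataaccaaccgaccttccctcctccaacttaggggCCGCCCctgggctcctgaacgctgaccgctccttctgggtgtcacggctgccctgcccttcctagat
Tnfrsf12a: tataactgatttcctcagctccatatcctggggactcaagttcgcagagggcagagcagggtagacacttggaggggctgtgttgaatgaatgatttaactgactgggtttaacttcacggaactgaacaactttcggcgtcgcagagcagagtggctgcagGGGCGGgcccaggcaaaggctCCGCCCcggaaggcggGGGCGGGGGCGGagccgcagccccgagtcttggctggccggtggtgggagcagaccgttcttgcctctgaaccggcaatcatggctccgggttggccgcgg
The Tnfrsf12a window held 4 such matches, their first bases at positions -88, -67, -51 and -45 from the start, and the Tnfsf13 window held 1, at position -17. GGGCGG occurred in 10 of the 21 member windows, against 33.07% of all 33465 RefSeq windows of that length. TATAAA occurred in 5 member windows (Faslg, Lta, Tnfrsf17, Tnfsf11 and Tnfsf15) and in 14.22% of all windows. An NF-kB decamer, searched on both strands, occurred in the windows of Cd70, Lta, Ltb and Tnfrsf8 and in 4.18% of all windows, and no match to it was found in the other 17 member windows. TGACTCA, the AP-1 site, occurred in the windows of Tnfrsf1b and Tnfrsf8 and in 4.63% of all windows, and the PU.1-type sequence GAGGAAGT occurred in that of Fas and in 2.42%.

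Of the 30 members, 27 passed the filter on dim probe sets, which asked for a value above the 30th percentile of the array on at least 3 arrays. The 27 comprised 11 ligands, 4 death domain receptors, 10 TRAF-binding receptors and 2 receptors classed as decoy or non-signalling. Cd40lg (the ligand of Cd40), Tnfsf11 (RANKL, the osteoclast differentiation factor) and Tnfrsf8 (Cd30) lay above that percentile on 0 arrays, with mean signals of 3.21, 3.51 and 3.90, and were not tested. Just inside the filter, Cd70 passed on 3 arrays and Tnfrsf10b on 8. The standard deviation of a tested member's values around its group means was 0.0919 to 0.252, with a median of 0.127.

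Microglial markers were present on every array, with all 9 measured markers above the percentile on all 30 arrays, but their level differed between the hemispheres. The summed signal of these 9 genes was 10900 to 14830 on the ipsilateral arrays and 16020 to 19700 on the contralateral arrays, and 7 of the 9 were called lower ipsilaterally in each of the 4 comparisons. Called higher ipsilaterally was 1 of the 9 at 12 months on day 14 and on both days at 3 months, and 0 at 12 months on day 3. Markers of monocytes and macrophages were mostly higher ipsilaterally on day 3, and only in part on day 14. At 12 months, 3 of 8 tested were called higher on day 14 and 7 of 8 on day 3. At 3 months, 3 of 8 were called higher on day 14 and 8 of 8 on day 3, and 0 were called lower in any comparison. The median log2 difference of the 8 was -0.05, 1.19, 0.09 and 2.06 in that order. The summed signal of these markers over 9 genes was 841.9 to 1308, 2159 to 2451, 867.2 to 1113 and 1249 to 3475 on the ipsilateral arrays in the same order, against 507.9 to 726.4 on the contralateral arrays. Of 8 neutrophil markers, 0 were higher ipsilaterally and 1 lower at 12 months on day 14, 1 higher and 0 lower at 12 months on day 3, 1 higher and 3 lower at 3 months on day 14, and 3 higher and 0 lower at 3 months on day 3. Of 11 T and NK cell markers, Cd5, Cd8a and Gzmb were above the percentile on all 30 arrays and Cd3g and Prf1 on 0. Of the 9 tested, 1 was called higher ipsilaterally in each comparison, and 1 was called lower on day 3 at both ages and 0 on day 14. Among 4 B and plasma cell markers, Cd79b and Blk were above it on all 30 arrays and Ms4a1 and Jchain on 0, and 0 of the 2 tested were called in any of the 4 comparisons. The part of these markers in the results below was not tested, and in such bulk samples fewer cells of a type and less RNA per cell cannot be told apart.

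The first comparison asked which ligands and receptors differed between the injured and the opposite hemisphere. The ligands Tnfsf13 and Tnfsf12 were called higher ipsilaterally in all 4 comparisons, Tnfsf9 in 3 and Tnfsf13b in 2. The receptor Tnfrsf12a was called lower in 3 comparisons, and Tnfrsf21 and Tnfrsf26 in 2 each. On day 14 at 12 months, 2 of the 27 tested members were higher and 2 lower, while 16.8% of all genes tested were called, 10.9% higher and 5.94% lower. In 12 month animals on day 3, 5 were higher and 5 lower, against 28.7% of all genes, 18.7% higher and 10% lower. On day 14 at 3 months, 5 were higher and 2 lower, against 20.3%, 13.2% higher and 7.09% lower. In 3 month animals on day 3, 3 were higher and 2 lower, against 20.4%, 11.5% higher and 8.95% lower. These members amount to 14.8%, 37%, 25.9% and 18.5% of the 27 in the same order, so that the family's share lay within 10 percentage points of the share over all genes. The median log2 difference of the members was 0.03, -0.09, 0.01 and -0.01, against -0.01 over all genes in each comparison. Arrays of the hemispheres that do not overlap were common: in the same order this held for 31.4%, 45.9%, 29.8% and 30% of all genes tested. Among the members, the ipsilateral arrays lay wholly higher for 4, 5, 6 and 4 and wholly lower for 2, 8, 3 and 4. Statements below that arrays did not overlap are to be read against these shares.

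**Figure D1:**
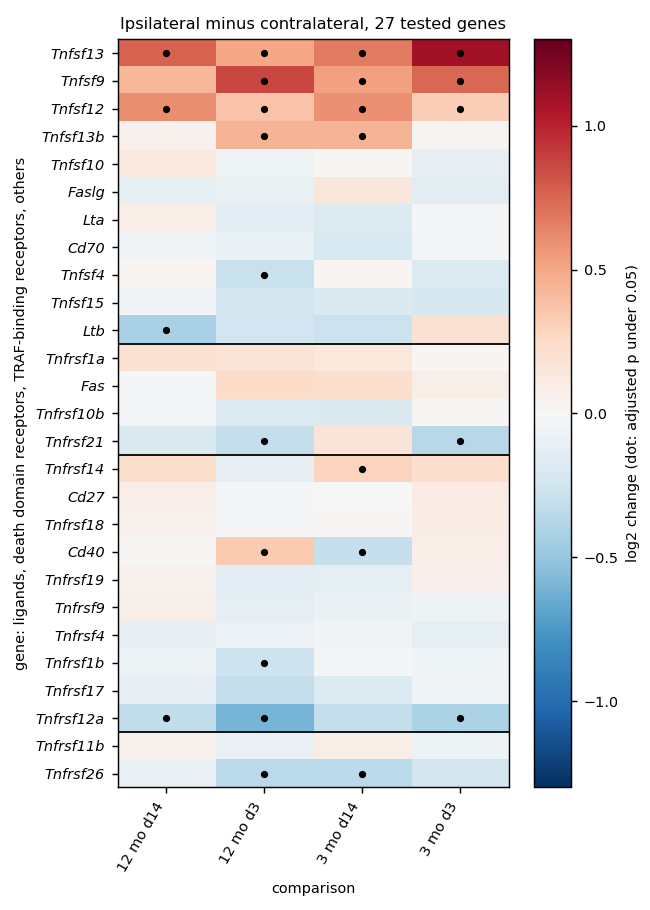
Log2 change, ipsilateral minus contralateral, of the 27 tested members (rows, ordered by role: 11 ligands, 4 death domain receptors, 10 TRAF-binding receptors and 2 others) in the 4 comparisons (columns; mo, months of age; d, day). Red is higher ipsilaterally, blue lower, and a black dot marks an adjusted p under 0.05 (limma). Tnfsf13 and Tnfsf12 carry a dot in all 4 columns, and Tnfrsf12a is blue in all 4.

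Over all tested genes, 4.87% were called higher in all 4 comparisons and 2.11% lower in all 4, and among the members 2 (Tnfsf12 and Tnfsf13) were higher in all 4 and 0 lower in all 4. Called higher in at least 3 of the 4 were 8.58% of all genes, and of the 27 members Tnfsf12, Tnfsf13 and Tnfsf9. Called lower in at least 3 were 3.89% of all genes, and of the members Tnfrsf12a. Single arrays moved some of the counts of members called in a comparison. For 12 months and day 14 the count was 2 in place of 4 without ipsilateral replicate 1 or 3 or contralateral replicate 3. At 12 months on day 3 it was 6 in place of 10 without ipsilateral replicate 1 or 3 or contralateral replicate 2. For 3 months and day 14 it was 4 in place of 7 without ipsilateral replicate 2 and 3 without contralateral replicate 1. Fitting only the 6 arrays of a comparison gave 2 calls in place of 4 at 12 months on day 14, 2 in place of 7 at 3 months on day 14, and 3 in place of 5 at 3 months on day 3.

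Among the ligands, Tnfsf13 (April, a ligand of B cell and plasma cell survival that binds TACI and BCMA) was higher in the ipsilateral sample of 12 of 12 animals, by 0.40 to 1.54 on the log2 scale. Its log2 signal on day 14 at 12 months was 8.07, 7.75 and 8.06 ipsilaterally against 6.95, 7.30 and 7.34 contralaterally, a difference of 0.76 ± 0.18 (SE; adjusted p = 0.00287). On day 3 at that age it was 7.74, 7.43 and 7.62 against 7.35, 6.92 and 7.03, a difference of 0.50 ± 0.18 (adjusted p = 0.0385). The hemispheres did not overlap in either comparison, and the sham arrays at 12 months, at 7.15, 7.08 and 7.26, lay among the contralateral ones. At 3 months on day 14 the ipsilateral arrays read 7.69, 7.50 and 7.50 and the contralateral ones 7.05, 6.68 and 6.94 (difference 0.68 ± 0.18, adjusted p = 0.0076). On day 3 they read 8.50, 7.58 and 7.46 ipsilaterally and 6.96, 6.59 and 6.72 contralaterally (1.09 ± 0.18, adjusted p = 3.99e-05), with sham at 6.88, 6.80 and 7.28. The highest of these, ipsilateral replicate 1 at 3 months on day 3, was also the array with the highest summed monocyte and macrophage signal (3475). A link between these values was not tested. Without this array the difference was 0.76 (adjusted p = 0.000589). The call at 12 months on day 3 ended without ipsilateral replicate 1 or 3 or contralateral replicate 2 or 3 (log2 difference 0.41 to 0.49, adjusted p 0.0940 to 0.166) and after quantile normalization (0.40, adjusted p = 0.0843). BCMA itself, Tnfrsf17, was dim: it passed the percentile on 20 arrays and was called in 0 of the 4 hemisphere comparisons.

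Tnfsf12 (TWEAK, the ligand of the receptor Fn14), the neighbour of Tnfsf13, was likewise higher in 12 of 12 animals, by 0.13 to 0.76. Its ipsilateral signal at 12 months on day 14 was 7.41, 7.59 and 7.55, against 6.78, 6.98 and 7.00 contralaterally (difference 0.60 ± 0.09, adjusted p = 6.31e-06). On day 3 it was 7.32, 7.47 and 7.35 against 7.13, 6.99 and 6.91 (0.37 ± 0.09, adjusted p = 0.00156). On day 14 at 3 months the 3 ipsilateral arrays were nearly alike, at 7.64, 7.68 and 7.65, all above the contralateral 7.12, 7.17 and 6.90 (0.59 ± 0.09, adjusted p = 7.39e-06). On day 3 the ipsilateral signal was 7.99, 7.75 and 7.98 and the contralateral one 7.59, 7.62 and 7.54 (0.32 ± 0.09, adjusted p = 0.0072). No array of one hemisphere reached the range of the other in any of the 4 comparisons. In 3 month animals on day 3 the contralateral arrays also stood above all 3 sham arrays, at 6.88, 6.88 and 6.84, by 0.72 ± 0.09 (adjusted p = 1.26e-07). In a fit of the 6 hemisphere arrays of 3 months and day 3 alone, the hemisphere difference was not called (adjusted p = 0.0674).

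Tnfsf9 (4-1BB ligand, which costimulates T cells through Tnfrsf9) was the member with the largest ipsilateral difference at 12 months on day 3. The 3 ipsilateral arrays there read 8.31, 8.05 and 8.42, against 7.19, 7.34 and 7.65 contralaterally and 7.18, 7.00 and 6.86 in sham (ipsilateral minus contralateral 0.87 ± 0.17, adjusted p = 0.000185). On day 14 at that age the ipsilateral signal was 7.92, 7.58 and 7.46, against 7.35, 7.38 and 6.95 (0.43 ± 0.17), which did not pass the test (adjusted p = 0.0826) but did with animal as a fixed block (adjusted p = 0.0274) and when only the arrays of that age were fitted (adjusted p = 0.0457). For 3 months and day 14 the values were 7.53, 8.14 and 7.21 against 7.06, 7.20 and 7.03 (0.53 ± 0.17, adjusted p = 0.0236), and on day 3 they were 8.03, 7.89 and 7.95 against 7.17, 7.12 and 7.34 (0.74 ± 0.17, adjusted p = 0.00147). Ipsilateral and contralateral arrays were apart in all 4 comparisons, by the least at 3 months on day 14, and ipsilateral was the higher in 12 of 12 animals, by 0.18 to 1.12. The call at 3 months on day 14 leaned on ipsilateral replicate 2: without it the difference was 0.27 (adjusted p = 0.244). It also ended without contralateral replicate 1 (0.52, adjusted p = 0.0604) or 3 (0.50, adjusted p = 0.0732), and in a fit of those 6 arrays alone (adjusted p = 0.0958). The receptor of this ligand, Tnfrsf9, passed the percentile on 16 arrays and was called in 0 of all 19 comparisons.

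**Figure D2:**
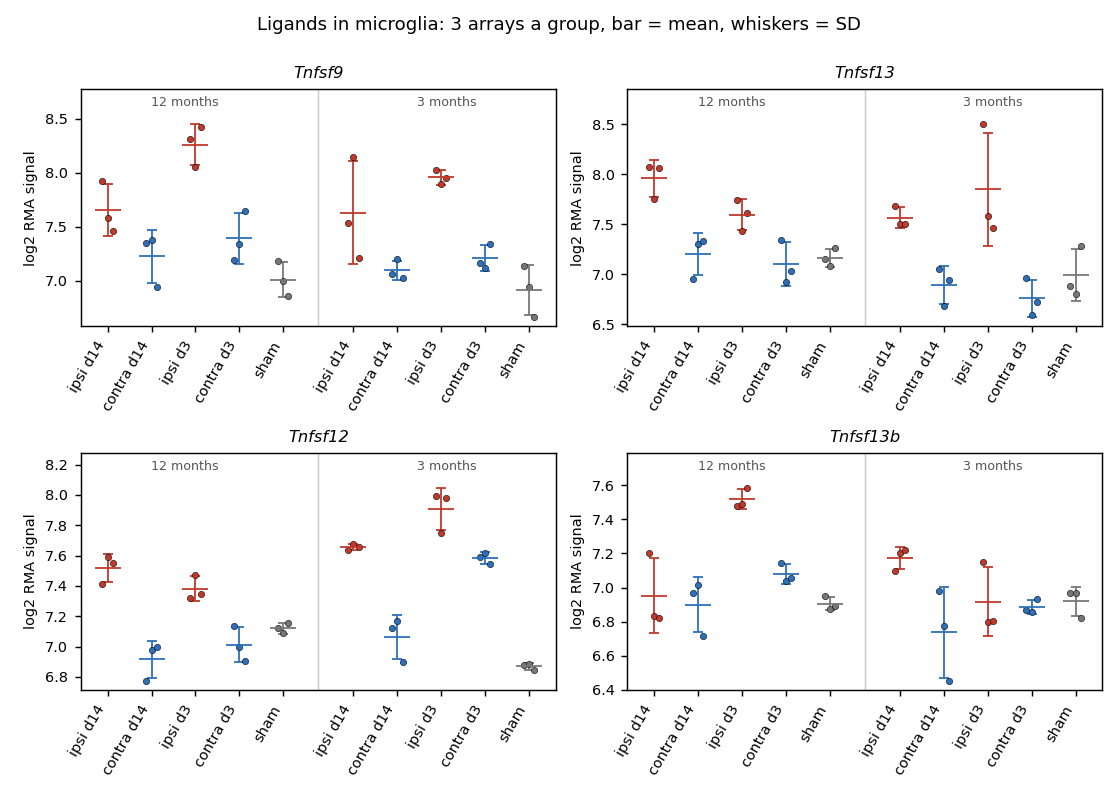
Log2 signal of Tnfsf9, Tnfsf13, Tnfsf12 and Tnfsf13b on every array, by group (12 months left, 3 months right; ipsi, ipsilateral; contra, contralateral; d, day). Points are the 3 arrays of a group, the wide bar is their mean and the whiskers their SD; the vertical axis does not start at 0. The red ipsilateral points of Tnfsf9, Tnfsf13 and Tnfsf12 lie above the blue contralateral points in all 4 pairs, whereas those of Tnfsf13b do so only at 12 months on day 3 and at 3 months on day 14.

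Tnfsf13b (BAFF, a B cell survival factor related to April) was called in 2 of the 4 comparisons, which differed in both age and day. In 12 month animals on day 3 the ipsilateral arrays read 7.48, 7.49 and 7.58 and the contralateral ones 7.15, 7.04 and 7.06 (difference 0.44 ± 0.11, adjusted p = 0.0041), a call kept under all alternatives run and without each array. At 3 months on day 14 the ipsilateral signal was 7.10, 7.20 and 7.22 and the contralateral signal 6.98, 6.78 and 6.45 (0.44 ± 0.11, adjusted p = 0.00619). That call ended without contralateral replicate 3 (0.30, adjusted p = 0.0782) and in a fit of those 6 arrays alone (adjusted p = 0.0547). For 12 months and day 14 the difference was 0.05 ± 0.11 and at 3 months on day 3 it was 0.03 ± 0.11, neither passing the test. The difference between the hemisphere effects of the days was -0.38 ± 0.16 at 12 months and 0.41 ± 0.16 at 3 months, and neither passed the test of that difference (adjusted p = 0.207 and 0.173).

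Lower ligands were few and their differences small. Tnfsf4 (OX40 ligand, a T cell costimulator) read 6.30, 6.37 and 6.21 ipsilaterally at 12 months on day 3, against 6.71, 6.55 and 6.49 contralaterally (-0.29 ± 0.10, adjusted p = 0.0241), with no overlap. The call was lost without ipsilateral replicate 1 or 3 or contralateral replicate 1 (-0.23 to -0.29, adjusted p 0.0574 to 0.127). Ltb (lymphotoxin beta, which forms a membrane trimer with lymphotoxin alpha) read 4.96, 5.29 and 4.77 ipsilaterally at 12 months on day 14, against 5.43, 5.25 and 5.61 contralaterally (-0.42 ± 0.13, adjusted p = 0.0259), with overlapping arrays. Its call was lost without ipsilateral replicate 1 or 3 or contralateral replicate 1 or 3 (-0.30 to -0.42, adjusted p 0.0621 to 0.179), after quantile normalization (adjusted p = 0.0613) and in a fit of those 6 arrays alone (adjusted p = 0.0691). On day 3 at 3 months its difference was 0.20 ± 0.13 (adjusted p = 0.361) and 0.37 without ipsilateral replicate 3 (adjusted p = 0.045). The other 5 tested ligands, Tnfsf10 (TRAIL), Tnfsf15, Faslg, Lta and Cd70, were called in 0 of the 4 hemisphere comparisons.

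Of the death domain receptors, Tnfrsf21 (death receptor 6) was the one called between the hemispheres. At 12 months on day 3 its signal was 8.21, 8.20 and 8.29 ipsilaterally against 8.53, 8.57 and 8.51 contralaterally, a difference of -0.30 ± 0.10 (adjusted p = 0.026). In 3 month animals on day 3 it was 7.84, 7.80 and 7.88 against 8.36, 7.92 and 8.31 (-0.36 ± 0.10, adjusted p = 0.0124). Ipsilateral arrays lay below all contralateral ones in both comparisons. On day 14 the sign was not shared by the ages: -0.19 ± 0.10 at 12 months (8.34, 8.22 and 8.43 against 8.48, 8.51 and 8.56) and 0.17 ± 0.10 at 3 months (8.30, 8.48 and 8.13 against 8.35, 8.02 and 8.03), neither called (adjusted p = 0.255 and 0.275). The day 3 call at 12 months ended without ipsilateral replicate 1 or 2 or contralateral replicate 1 or 2 (-0.29 to -0.31, adjusted p 0.0535 to 0.082). At 3 months it ended without contralateral replicate 1 (-0.28, adjusted p = 0.0971) or 3 (-0.30, adjusted p = 0.072), and in fits of those 6 arrays (adjusted p = 0.0814) or of that age alone (adjusted p = 0.0643).

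The remaining death domain receptors were called in 0 of the 4 hemisphere comparisons. Tnfrsf1a (Tnfr1, the receptor of soluble TNF) differed by 0.20 ± 0.12 at 12 months on day 14, 0.16 ± 0.12 at 12 months on day 3, 0.14 ± 0.12 at 3 months on day 14 and 0.03 ± 0.12 at 3 months on day 3, with adjusted p from 0.29 to 0.917. Fas, the receptor of Fas ligand, and Tnfrsf10b, a TRAIL receptor, were near the array's dim end, above the percentile on 17 and 8 of the 30 arrays. Fas was called in 0 of all 19 comparisons, its smallest adjusted p being 0.076.

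Among the TRAF-binding receptors, Tnfrsf12a (Fn14, the TWEAK receptor) moved opposite to its ligand: it was lower ipsilaterally in 12 of 12 animals, by 0.14 to 0.72 in size. It read, on day 14 at 12 months, 7.94, 7.84 and 7.98 ipsilaterally against 8.09, 8.30 and 8.35 contralaterally, with sham at 8.11, 8.21 and 8.10 (ipsilateral minus contralateral -0.32 ± 0.11, adjusted p = 0.0467). On day 3 at that age it read 7.83, 7.91 and 7.74 against 8.26, 8.58 and 8.47 (-0.61 ± 0.11, adjusted p = 0.000112). The ipsilateral arrays of both days lay below all contralateral and all sham arrays of that age. On day 3 the contralateral arrays averaged 8.44, against 8.14 in sham, a difference that was not called. The hemisphere difference on that day thus spans values on both sides of sham. For 3 months and day 14 the values were 7.99, 7.56 and 7.81 against 8.28, 7.99 and 8.01, the highest ipsilateral array just passing the lowest contralateral one (-0.31 ± 0.11, adjusted p = 0.0556). On day 3 they were 7.49, 7.45 and 7.87 against 7.935, 7.999 and 8.104 (-0.41 ± 0.11, adjusted p = 0.00832).

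How firmly this was called differed between the comparisons. For Tnfrsf12a at 12 months on day 3, the call held under every alternative run and without each array (adjusted p at most 0.00211). In 12 month animals on day 14 it ended without any one ipsilateral array or contralateral replicate 2 or 3 (-0.27 to -0.35, adjusted p 0.0648 to 0.179), with no filter on dim probe sets (adjusted p = 0.0544) and in a fit of those 6 arrays alone, at the threshold (adjusted p = 0.05). The difference at 3 months on day 14 passed with animal as a fixed block (adjusted p = 0.0365) or a random block (adjusted p = 0.0408), after quantile normalization (-0.39, adjusted p = 0.0122), with a stricter filter (adjusted p = 0.0468) and with another variance model (adjusted p = 0.0456), and also without ipsilateral replicate 1 (-0.41, adjusted p = 0.0201) or contralateral replicate 2 (-0.36, adjusted p = 0.0462). At 3 months on day 3 the call ended without ipsilateral replicate 1 (-0.36, adjusted p = 0.0557) or 2 (-0.34, adjusted p = 0.0638).

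Cd40, a costimulatory receptor that activates macrophages when bound by its T cell ligand, was called in opposite directions in 2 comparisons. For 12 months and day 3 it read 7.75, 7.73 and 7.90 ipsilaterally, above the contralateral 7.35, 7.46 and 7.56 (0.34 ± 0.10, adjusted p = 0.0127). On day 14 at 3 months it read 7.39, 7.52 and 7.21 ipsilaterally against 7.84, 7.71 and 7.48 contralaterally, with 1 pair of arrays crossing (-0.30 ± 0.10, adjusted p = 0.0343). The first call ended without ipsilateral replicate 3 (0.28, adjusted p = 0.0794) or contralateral replicate 1 (0.28, adjusted p = 0.0689) and after quantile normalization (0.24, adjusted p = 0.0796). The second ended without ipsilateral replicate 1 or 3 or contralateral replicate 1 or 2 (-0.22 to -0.31, adjusted p 0.0679 to 0.186), and in fits of those 6 arrays (adjusted p = 0.156) or of that age alone (adjusted p = 0.0636). The differences of its hemisphere effect between ages and between days did not pass the test (adjusted p 0.137 to 0.523 over the 4 differences).

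Tnfrsf1b (Tnfr2, the TNF receptor without a death domain) read 8.63, 8.78 and 8.70 ipsilaterally at 12 months on day 3, below the contralateral 8.97, 9.08 and 8.87 (-0.27 ± 0.10, adjusted p = 0.037). With animal as a fixed block this was not called (adjusted p = 0.0602), nor without ipsilateral replicate 1 or 3 or contralateral replicate 1 or 2 (-0.22 to -0.27, adjusted p 0.0745 to 0.169). Tnfrsf14 (HVEM, the receptor of LIGHT and BTLA) was the one TRAF-binding receptor called higher apart from Cd40. In 3 month animals on day 14 it read 6.14, 6.40 and 6.14 ipsilaterally against 5.68, 5.95 and 6.18 contralaterally, with overlapping arrays (0.29 ± 0.10, adjusted p = 0.0366). That call was lost with animal as a fixed block (adjusted p = 0.0519), in fits of those 6 arrays (adjusted p = 0.215) or of that age alone (adjusted p = 0.0944), and without ipsilateral replicate 2 or contralateral replicate 1 or 2 (0.16 to 0.30, adjusted p 0.0634 to 0.288). The other 6 tested TRAF-binding receptors, Tnfrsf4 (OX40), Tnfrsf9, Tnfrsf17, Tnfrsf18 (GITR), Tnfrsf19 and Cd27, were called in 0 of the 4 hemisphere comparisons.

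**Figure D3:**
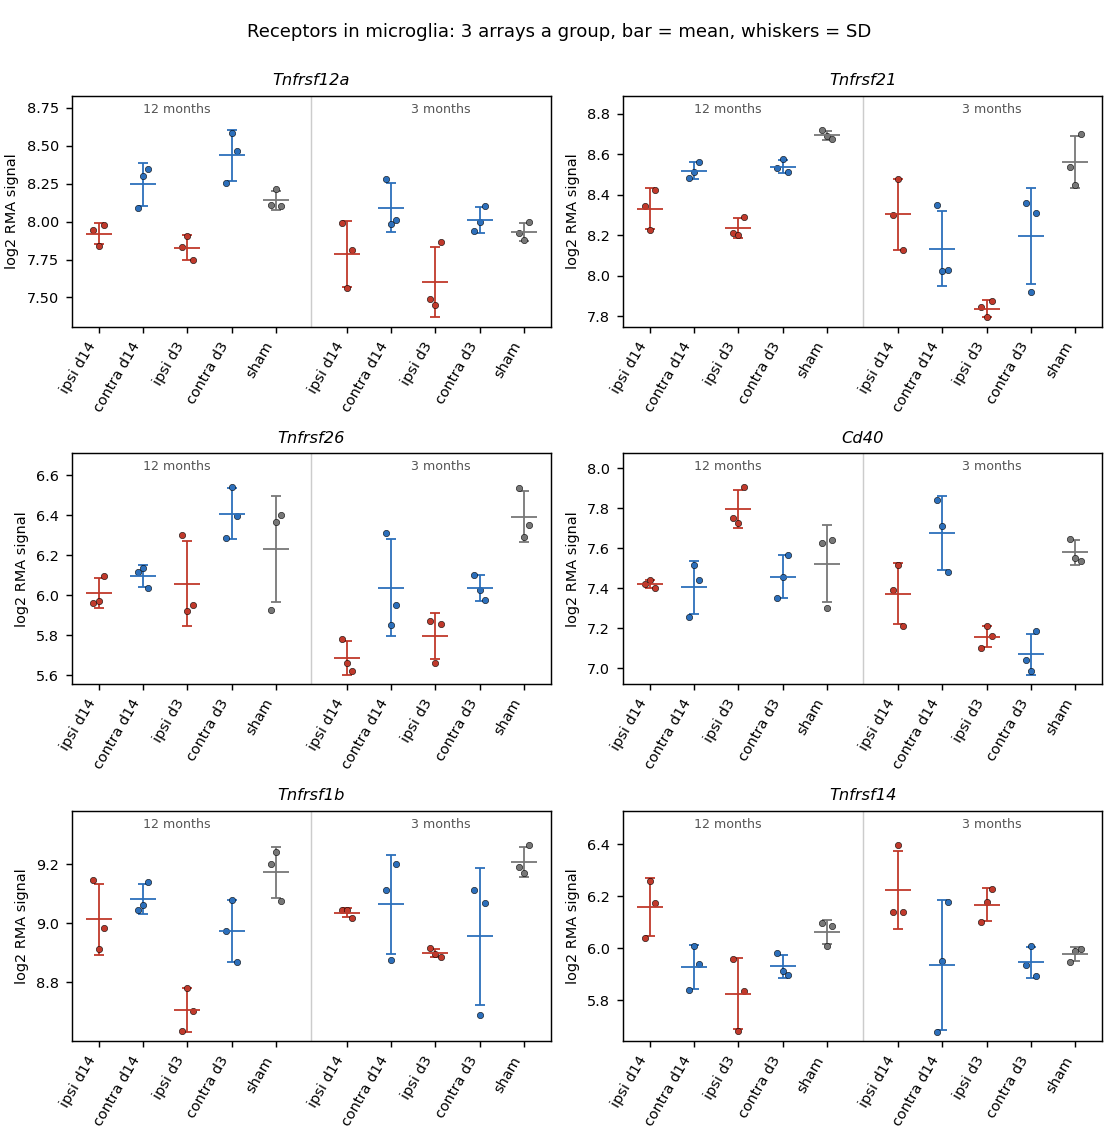
Log2 signal of Tnfrsf12a, Tnfrsf21, Tnfrsf26, Cd40, Tnfrsf1b and Tnfrsf14 on every array, by group (12 months left, 3 months right; ipsi, ipsilateral; contra, contralateral; d, day). Points are the 3 arrays of a group, the wide bar is their mean and the whiskers their SD; the vertical axis does not start at 0. Ipsilateral Tnfrsf12a lies below contralateral Tnfrsf12a in 3 of the 4 pairs without overlap, and Tnfrsf21 on day 3 in both ages.

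Tnfrsf26, which in mouse lies in a cluster with decoy TRAIL receptors and has no death domain, was lower ipsilaterally in 10 of 12 animals. For 3 months and day 14 its signal was 5.78, 5.66 and 5.62 ipsilaterally against 6.31, 5.85 and 5.95 contralaterally, with no overlap (-0.35 ± 0.12, adjusted p = 0.0403). At 12 months on day 3 it was 6.30, 5.92 and 5.95 against 6.28, 6.54 and 6.40, with 1 ipsilateral array inside the contralateral range (-0.35 ± 0.12, adjusted p = 0.0295). The first call ended without ipsilateral replicate 2 or 3 or contralateral replicate 1 (-0.21 to -0.34, adjusted p 0.0945 to 0.269) and in a fit of those 6 arrays alone (adjusted p = 0.112). The second ended without ipsilateral replicate 2 or 3 or contralateral replicate 2 or 3 (-0.28 to -0.36, adjusted p 0.0609 to 0.145). Tnfrsf11b (osteoprotegerin, the soluble decoy of RANKL) was not called between the hemispheres, with differences from -0.09 to 0.09.

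**Figure D4:**
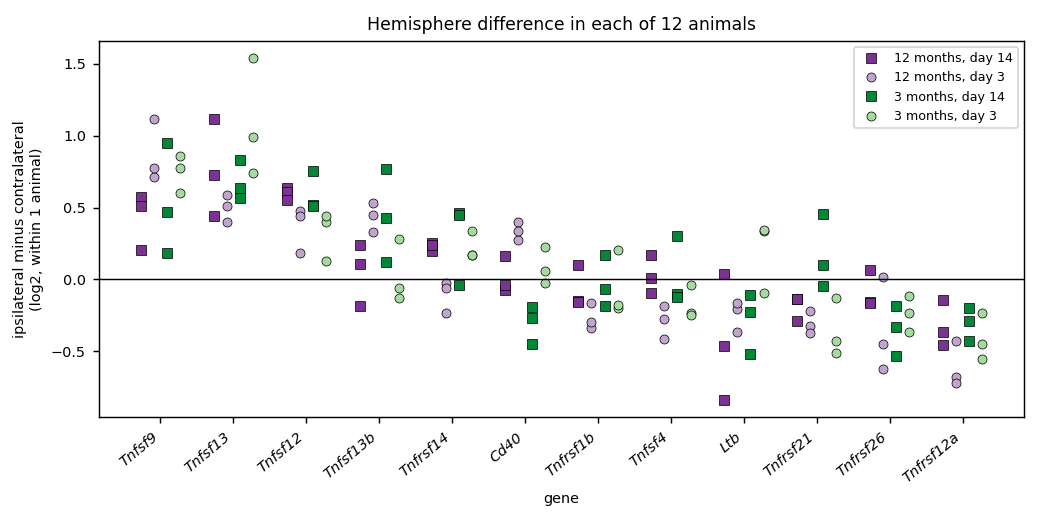
Ipsilateral minus contralateral log2 signal within each of the 12 stroke animals for the 12 members called in at least 1 hemisphere comparison. Squares are day 14 and circles day 3, purple 12 months and green 3 months; the horizontal line is 0. Tnfsf9, Tnfsf13 and Tnfsf12 lie above the line in all 12 animals and Tnfrsf12a below it in all 12, whereas Cd40 lies above it in 6 and below it in 6.

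The next comparison asked whether the hemisphere difference depended on day or age. Of the 27 members, 1 was called for the difference between days at 3 months, against 3.81% of all genes (2.57% higher and 1.24% lower), and 0 at 12 months, against 5.34% (1.75% and 3.59%). The one called was Tnfrsf21 at 3 months, whose hemisphere difference on day 14 exceeded that on day 3 by 0.53 ± 0.15 (adjusted p = 0.0376). That call was lost with animal as a fixed block (adjusted p = 0.061), in fits of the arrays compared (adjusted p = 0.233) or of that age alone (adjusted p = 0.172), and without any one of 8 of the 12 arrays (ipsilateral replicates 1 and 2 and contralateral replicates 2 and 3 of day 14, and ipsilateral replicates 1 and 2 and contralateral replicates 1 and 3 of day 3), with 0.44 to 0.53 and adjusted p 0.0563 to 0.128. Without ipsilateral replicate 3 of day 3, 2 members were called, the second being Ltb (-0.66, adjusted p = 0.0258). For the difference of the hemisphere effect between ages, 0 members were called on day 14, against 0.00857% of all genes, and 0 on day 3, against 1.58% (1.42% higher and 0.154% lower). Without adjustment, a p under 0.05 was reached by 4 members in each of these comparisons of ages, by 4 for the days at 12 months and by 6 for the days at 3 months, and the alternatives run gave 0 calls in both comparisons of the ages and in that of the days at 12 months. For Tnfsf13, the largest such difference, the hemisphere effect at 12 months minus that at 3 months on day 3 was -0.59 ± 0.26 (adjusted p = 0.299).

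Against sham, ipsilateral microglia at 12 months on day 14 had 3 members higher and 1 lower, while 20% of all genes were called, 11.9% higher and 8.09% lower. Day 3 at that age had 4 higher and 6 lower, against 37.1% of all genes, 22.7% higher and 14.3% lower. At 3 months on day 14, 5 were higher and 6 lower, against 34.4%, 11% higher and 23.4% lower. On day 3 at that age, 6 were higher and 8 lower, against 56.8%, 20.9% higher and 35.9% lower. Without replicate 2 of the 12 month sham group, the count for 12 months and day 3 was 6 in place of 10. Since the 2 hemispheres and both days of an age share the same 3 sham arrays, these comparisons are not independent of each other.

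In the contralateral hemisphere at 12 months, 0 members were called against sham on day 14, against 0.00857% of all genes, and 0 on day 3, against 1.28% (1.16% higher and 0.128% lower). Without adjustment, a p under 0.05 was reached by 2 members on day 14 and 4 on day 3, and all 8 alternatives run gave 0 calls in both. At 3 months the contralateral hemisphere gave 3 higher and 4 lower members on day 14 (38.7% of all genes, 10.4% higher and 28.4% lower) and 5 higher and 6 lower on day 3 (51.6%, 14.4% higher and 37.2% lower), where the code series changes with the group. The count on day 3 was 6 in place of 11 without contralateral replicate 2, 7 without sham replicate 1, and 7 when only the arrays of that age were fitted.

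Tnfsf9 and Tnfsf12 were higher ipsilaterally than in sham in all 4 comparisons. For Tnfsf9 the difference was 0.64 ± 0.17 at 12 months on day 14 (adjusted p = 0.00563), 1.25 ± 0.17 at 12 months on day 3 (adjusted p = 6.25e-07), 0.71 ± 0.17 at 3 months on day 14 (adjusted p = 0.00131) and 1.04 ± 0.17 at 3 months on day 3 (adjusted p = 5.45e-06). Contralateral Tnfsf9 minus sham was 0.21, 0.38, 0.18 and 0.30 in the same order, none called. For Tnfsf12 the ipsilateral difference from sham was 0.39 ± 0.09 and 0.26 ± 0.09 on days 14 and 3 at 12 months (adjusted p = 0.00112 and 0.019), and 0.79 ± 0.09 and 1.04 ± 0.09 on days 14 and 3 at 3 months (adjusted p = 3.88e-08 and 5.03e-11). Contralateral Tnfsf12 at 3 months also averaged above sham, at 7.06 on day 14 and 7.58 on day 3 against 6.87. At 12 months it averaged 6.92 and 7.01 on these days, below the 7.12 of sham. Tnfsf13 was called higher than sham in 3 of the 4, with 0.80 ± 0.18 at 12 months on day 14 (adjusted p = 0.0015) and 0.44 ± 0.18 on day 3 there (adjusted p = 0.0598). Tnfsf13b was called once, at 12 months on day 3 (0.61 ± 0.11, adjusted p = 7.8e-05). For all of these ligands, the differences from sham at 3 months cannot be told apart from the code series.

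**Figure D5:**
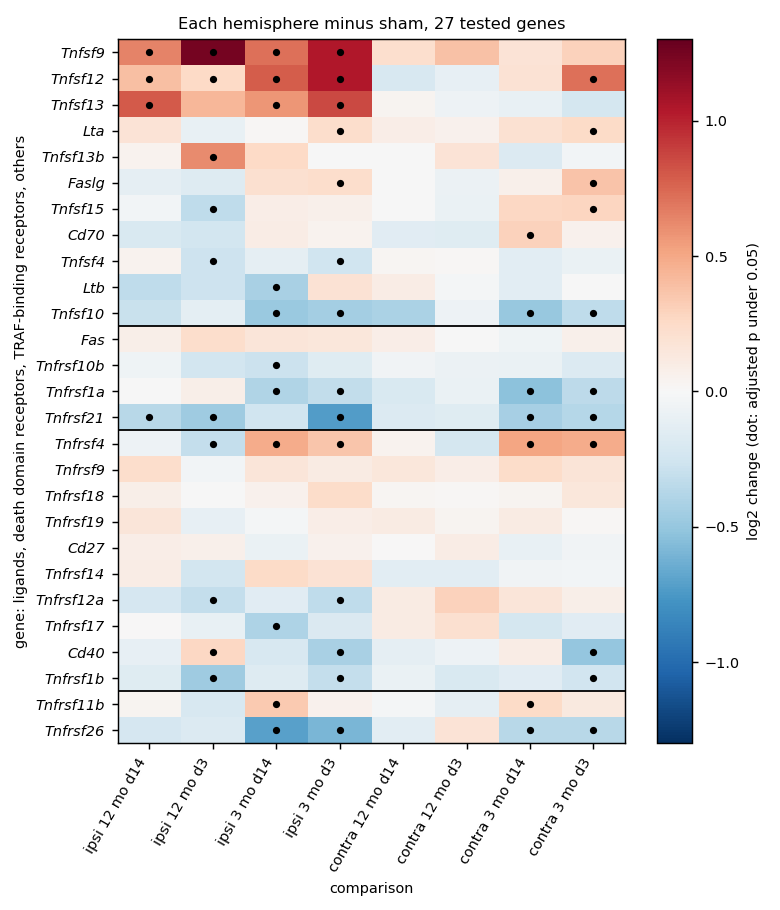
Log2 change against sham of the same age for the 27 tested members (rows, ordered by role: 11 ligands, 4 death domain receptors, 10 TRAF-binding receptors and 2 others): 4 ipsilateral columns, then 4 contralateral ones (mo, months of age; d, day). Red is higher than in sham, blue lower, and a black dot marks an adjusted p under 0.05 (limma). The contralateral columns at 12 months carry 0 dots, and those at 3 months carry 7 and 11.

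Among the receptors, Tnfrsf21 was lower ipsilaterally than in sham by -0.36 ± 0.10 at 12 months on day 14 (adjusted p = 0.0112), -0.46 ± 0.10 at 12 months on day 3 (adjusted p = 0.000671) and -0.72 ± 0.10 at 3 months on day 3 (adjusted p = 7.67e-07). The value on day 14 at 3 months was -0.26 ± 0.10 (adjusted p = 0.0526). Contralaterally at 3 months it was lower too, by -0.43 ± 0.10 on day 14 (adjusted p = 0.00178) and -0.37 ± 0.10 on day 3 (adjusted p = 0.00409). Tnfrsf1b was lower ipsilaterally on day 3 in both ages, by -0.47 ± 0.10 at 12 months (adjusted p = 0.000276) and -0.31 ± 0.10 at 3 months (adjusted p = 0.00774). Contralateral Tnfrsf1b at 3 months on day 3 was lower too (-0.25 ± 0.10, adjusted p = 0.0306), and the hemispheres there differed by -0.06 ± 0.10, which was not called. Tnfrsf12a was lower ipsilaterally on day 3 in both ages as well, by -0.31 ± 0.11 at 12 months (adjusted p = 0.0298) and -0.33 ± 0.11 at 3 months (adjusted p = 0.0137). Cd40 on day 3 was called higher than sham at 12 months (0.27 ± 0.10, adjusted p = 0.0371) and lower at 3 months, both ipsilaterally (-0.42 ± 0.10, adjusted p = 0.000897) and contralaterally (-0.51 ± 0.10, adjusted p = 0.000144). For all of these receptors, a difference from sham at 3 months cannot be told apart from the code series, so the ages cannot be set against each other here. The test of the hemisphere effect between ages on day 3, made within each series, did not call Cd40 (0.25 ± 0.14, adjusted p = 0.492).

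Further members were called against sham in both hemispheres at 3 months, where group and code series again cannot be told apart. Tnfrsf4 (OX40, the receptor of Tnfsf4) was higher by 0.48 ± 0.11 ipsilaterally and 0.51 ± 0.11 contralaterally on day 14 (adjusted p = 0.00105 and 0.000612), and by 0.36 ± 0.11 and 0.48 ± 0.11 on day 3 (adjusted p = 0.00696 and 0.000615). On day 3 at 12 months ipsilateral Tnfrsf4 was lower than sham instead (-0.31 ± 0.11, adjusted p = 0.0293). Tnfrsf1a was lower at 3 months by -0.39 ± 0.12 ipsilaterally and -0.53 ± 0.12 contralaterally on day 14 (adjusted p = 0.00841 and 0.000645) and by -0.31 ± 0.12 and -0.34 ± 0.12 on day 3 (adjusted p = 0.0212 and 0.0139). Tnfrsf26 was lower at 3 months by -0.71 ± 0.12 ipsilaterally and -0.36 ± 0.12 contralaterally on day 14 (adjusted p = 3.5e-05 and 0.0211) and by -0.60 ± 0.12 and -0.36 ± 0.12 on day 3 (adjusted p = 0.000119 and 0.0149). At 12 months neither Tnfrsf1a nor Tnfrsf26 was called against sham, the ipsilateral values of Tnfrsf1a being -0.0049 on day 14 and 0.07 on day 3 and those of Tnfrsf26 -0.22 and -0.17. Tnfsf10 (TRAIL, which can trigger apoptosis through its death receptors) fitted lower than sham in all 4 comparisons at 3 months, but no stroke array at that age lay above its percentile, so that the fitted -0.34 to -0.50 stand beside bounds of -0.08 to -0.15.

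The remaining calls against sham were these, and those at 3 months cannot be told apart from the code series. Faslg and Tnfrsf11b were rather dim, each above the percentile on 25 of the 30 arrays. Faslg (Fas ligand) and Lta (lymphotoxin alpha) were higher at 3 months on day 3, Faslg by 0.23 ± 0.09 ipsilaterally and 0.37 ± 0.09 contralaterally (adjusted p = 0.0266 and 0.000759), and Lta by 0.23 ± 0.09 and 0.25 ± 0.09 (adjusted p = 0.0393 and 0.025). Tnfrsf11b was higher at 3 months on day 14, by 0.34 ± 0.10 ipsilaterally and 0.25 ± 0.10 contralaterally (adjusted p = 0.00862 and 0.0471). Tnfsf15 (TL1A) was lower ipsilaterally at 12 months on day 3 (-0.33 ± 0.11, adjusted p = 0.0196) and higher contralaterally at 3 months on day 3 (0.28 ± 0.11, adjusted p = 0.035). Tnfsf4 was lower ipsilaterally on day 3 in both ages, by -0.27 ± 0.10 at 12 months (adjusted p = 0.0271) and -0.26 ± 0.10 at 3 months (adjusted p = 0.0249). Ltb was lower ipsilaterally at 3 months on day 14 (-0.42 ± 0.13, adjusted p = 0.0149). Cd70, Tnfrsf10b and Tnfrsf17 had a call each at 3 months on day 14 with 1 group wholly below the percentile: contralateral Cd70 0.30 (bound 0.09), ipsilateral Tnfrsf10b -0.28 (bound -0.08) and ipsilateral Tnfrsf17 -0.40 (bound -0.17). Of the 3 contralateral Cd70 arrays only 1 passed the percentile, so the bound of Cd70 is not a firm limit.

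Between days in the ipsilateral hemisphere, Tnfsf9 and Tnfsf13b at 12 months were lower on day 14 than on day 3. Tnfsf13b differed by -0.57 ± 0.11 (adjusted p = 0.000478) and Tnfsf9 by -0.60 ± 0.17 (adjusted p = 0.00958). In all, 4 members were higher and 3 lower on day 14 at 12 months, against 20.6% of all genes (6.53% higher and 14.1% lower), and 2 were higher and 2 lower at 3 months, against 29.6% (22% higher and 7.51% lower). Cd40 at 12 months was lower on day 14 as well (-0.37 ± 0.10, adjusted p = 0.00808), while Tnfrsf14, Tnfsf4, Tnfrsf1b and Lta were higher by 0.33, 0.32, 0.31 and 0.27 (adjusted p 0.0157 to 0.0403). At 3 months, where the day and the code series cannot be told apart, Ltb was lower on day 14 (-0.61 ± 0.13, adjusted p = 0.000897) and Tnfrsf21 higher (0.46 ± 0.10, adjusted p = 0.00104), with smaller calls for Tnfsf12 (-0.25, adjusted p = 0.0286) and Tnfrsf11b (0.28, adjusted p = 0.0355). The counts moved with single arrays: at 12 months it was 4 in place of 7 without replicate 1 of day 14 and 3 without replicate 3 of day 3, and at 3 months 2 in place of 4 without replicate 1 or 3 of day 14. In sham animals, 0 members were called between 12 and 3 months, against 13% of all genes (7.47% higher and 5.52% lower). In that comparison, 2 members had an unadjusted p under 0.05, and there was 1 call when only the 6 sham arrays were fitted or with a stricter filter on dim probe sets.

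The signalling genes of the family outside the symbol rule were read from a list of 52, of which 40 were tested and 12 not analysed here. In 12 month animals on day 14, 7 of the 40 were higher ipsilaterally and 1 lower, and on day 3, 10 were higher and 4 lower. In 3 month animals on day 14, 6 were higher and 3 lower, and on day 3, 4 were higher and 3 lower. The called genes were 20%, 35%, 22.5% and 17.5% of the 40 in that order, near the 16.8%, 28.7%, 20.3% and 20.4% of all genes tested. The shares higher and lower over all genes are given above for the same comparisons. Tnf itself was lower ipsilaterally in all 4, at a mean of 9.66 against 10.78 (-1.11 ± 0.16, adjusted p = 4.19e-06), 9.81 against 10.59 (-0.77 ± 0.16, adjusted p = 0.000323), 9.79 against 10.72 (-0.93 ± 0.16, adjusted p = 5.42e-05) and 10.46 against 11.10 (-0.64 ± 0.16, adjusted p = 0.00314) in that order. The genes called higher in all 4 were Xiap, an inhibitor of caspases, and Birc2 (cIAP1, a ubiquitin ligase that binds TRAF2). Xiap differed by 0.81 ± 0.08, 0.58 ± 0.08, 0.91 ± 0.08 and 0.57 ± 0.08, and Birc2 by 0.52 ± 0.10, 0.37 ± 0.10, 0.37 ± 0.10 and 0.35 ± 0.10 (adjusted p at most 0.0112). Tnip1, which restrains NF-kB signalling, was higher in 3 of the 4, and Nfkbie, an inhibitor of NF-kB, was lower in 3. Tank and Cyld, a TRAF-binding adaptor and a deubiquitinase of TNF signalling, were higher on day 3 in both ages.

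Single arrays and the block moved the signalling counts. For 12 months and day 3 the count was 9 in place of 14 with animal as a fixed block, 8 without ipsilateral replicate 1 or contralateral replicate 2, and 6 without ipsilateral replicate 3. For 3 months and day 14 it was 5 in place of 9 without contralateral replicate 3. This was the contralateral array with the highest summed neutrophil signal (3415), and a link to that signal was not tested. The calls of the members Tnfsf13b and Tnfsf9 in that comparison also ended without this array, as given above. At 3 months on day 3 the count was 2 in place of 7 without ipsilateral replicate 1, 4 without ipsilateral replicate 2 and 3 without contralateral replicate 3.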

How the data were processed

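Labels gave 10 groups of 3 arrays. Per the labels' protocols, RNA (integrity number above 7.0) was extracted with a miRNeasy kit, amplified from 50 ng and hybridised as biotin-labelled cDNA. The values are log2 expression values per probe set, deposited by the authors and made by RMA in Affymetrix Expression Console (versions not given), per the submitters' processing notes. No genome build is given in the sources used here. Levels of different probe sets are not comparable, and the number of arrays limits the precision. The standard deviation over an array was 1.788 to 1.934 on the 3-month stroke arrays and 1.944 to 2.051 on the others, so the arrays did not share 1 distribution.

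Of 29214 probe sets, 15310 had 1 gene symbol in the platform annotation, 323 several and 13581 none listed; only the first were used, with symbols updated through RefSeq genes of GRCr8. Probe sets needed 3 or more arrays with a value over that array's 30th percentile, which was 4.073 to 4.354, and each gene was read from its kept probe set with the highest mean. A group with no array above that percentile has a bound only, counted from the percentile.

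All 30 arrays were fitted in 1 model of 10 group means with limma 3.58.1 in R 4.3.3 (20 residual and 8.8 prior degrees of freedom), with Benjamini-Hochberg adjustment over 11675 genes in each of 19 comparisons. The fit was also run on simulated data with independent noise for each gene and array. Those data held no animal pairing, code series or difference in spread between arrays, so that run could not test these. Named with array values were the members called in at least 1 hemisphere comparison or difference of hemisphere effects. Of the signalling list, genes called at least 2 times in one direction were named. Members and lists were chosen with earlier results of these data known. The labels do not say whether sham arrays came from separate animals, and p-values then measure only the spread between these samples.

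The replicate numbers pair the hemispheres, because the sample codes give both arrays of a number to 1 animal. The correlation of paired deviations from the group means was -0.0789 to 0.211 over the 12 animals (duplicateCorrelation 0.0719). Alternatives were 2 other filters, quantile normalization, the mean over probe sets of a gene, animal as a fixed or random block, other sets of arrays in the fit, a trended and robust variance, and leaving out each array. Promoter windows came from RefSeq (GRCr8). Figures were drawn with matplotlib 3.10.9.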

Additional observations from a re-analysis of the deposited data

Results flagged for a closer look

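The hemisphere difference of Tnfrsf21 at 3 months changed with the day, by 0.526 on the log2 scale (day 14 minus day 3, SE 0.146, limma adjusted p = 0.0376), which was picked out because the test of the difference itself passed. The ipsilateral minus contralateral value was 0.17 on day 14 and -0.36 on day 3. With animal as a fixed block the adjusted p was 0.061, and over all alternatives and left-out arrays it ran from 0.00495 to 0.233.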

How the results depend on the processing

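Of 96 results for the 12 named members (4 hemisphere comparisons and 4 differences each), 27 were called; 10 of these stayed called under every alternative and without each array, and 0 of the 27 changed sign. Among uncalled values, 55 alternative values had the other sign. Quantile normalization moved the median over all genes by at most 0.0719. Fitting only the arrays compared gave 2 calls at 12 months on day 14, 2 at 3 months on day 14 and 3 at 3 months on day 3 between the hemispheres, 2 between the days at 3 months, 0 for the difference between days at 3 months, 1 for age in sham, and among signalling genes 3 at 3 months on day 14 and 2 on day 3; this leaves fewer arrays for the spread. Fitting only the arrays of 1 age gave 7 for contralateral against sham at 3 months on day 3, 2 between the days at 3 months and 0 for the difference between days at 3 months. A stricter filter gave 1 for age in sham. The cause of these moves was not tested.

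With animal as a fixed replicate block, hemisphere calls among members numbered 5, 9, 7 and 5 (12 months day 14 and day 3, 3 months day 14 and day 3) and signalling calls 9 at 12 months on day 3, and 0 members remained for the difference between days at 3 months; the pairing moved no other count by over 1.5 times. The calls of named members that the blocks changed are given beside them above, and they changed no other call of these members between the hemispheres or in their differences.

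Leaving out each array in turn gave these ranges of member calls. Between the hemispheres they were 2 to 3 at 12 months on day 14, 6 to 8 at 12 months on day 3, 3 to 7 at 3 months on day 14 and 4 to 6 at 3 months on day 3. Ipsilateral against sham they were 3 to 5, 6 to 10, 8 to 11 and 10 to 15 in the same order, and contralateral against sham 0 to 0, 0 to 0, 6 to 7 and 6 to 10. Between days they were 3 to 7 at 12 months and 2 to 5 at 3 months, and 0 to 2 for the difference between days at 3 months. Signalling calls ranged over 6 to 8, 6 to 12, 5 to 9 and 2 to 7. Dim probe sets limit Cd70, Tnfrsf10b, Tnfsf10, Tnfrsf9, Fas and Tnfrsf17, whose changes near the percentile cannot be measured.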
